A study of Drosophila melanogaster with 7 samples.

Results

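Su(Hw), Suppressor of Hairy-wing, is the zinc-finger protein that binds the insulator of the gypsy retrotransposon and many other sites in the Drosophila genome. At the gypsy insulator it acts with Mod(mdg4) and with CP190, a BTB-domain zinc-finger protein that is brought to chromatin by several insulator proteins. The other DNA-binding insulator proteins of the data set are BEAF (boundary element-associated factor) and dCTCF (the Drosophila counterpart of vertebrate CTCF), and each is also known to occur with CP190. The sites described here were chosen by overlap of the peak lists: they are the mitotic Su(Hw) peaks on the main arms (X, 2L, 2R, 3L, 3R and 4) that overlapped no interphase dCTCF peak and no interphase BEAF peak by 1 bp or more. They numbered 674 of the 1024 Su(Hw) peaks on those arms, of 1829 Su(Hw) peaks in all and of 40204 peaks in the 7 lists of the series. They are called Su(Hw) peaks without dCTCF or BEAF, and the remaining 350 are called Su(Hw) peaks with dCTCF or BEAF.

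The series is a set of chromatin immunoprecipitation sequencing (ChIP-seq) libraries from Kc167, an established line of Drosophila melanogaster derived from embryos, grown without serum and given no treatment that the labels name. Mitotic and interphase cells were separated by sorting fixed cells on a phosphorylated histone H3 antibody and a DNA stain. CP190, dCTCF and BEAF were analysed in mitosis and in interphase, and Su(Hw) in mitosis, with 1 library per group. An interphase list of Su(Hw) was not analysed here, so Su(Hw) sites are sites of the mitotic list throughout.

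The main-arm lists held 3759 mitotic and 10431 interphase CP190 peaks, 2237 mitotic and 2882 interphase dCTCF peaks, and 2432 mitotic and 5681 interphase BEAF peaks. With 1 library per group nothing can be set against replicate spread, and no test between groups was made. Intervals in parentheses are 95% Wilson intervals of a share, and differences of shares carry 95% Newcombe intervals in percentage points. Both cover counting error only, and neighbouring peaks of a list are not independent. The lists hold no read numbers, so the depth is unknown, and absence from a list says only that no peak was called. Scores are those of the authors' peak caller and rank peaks within 1 list only. Coordinates count from 1 and are those of the deposited lists; the names of the sequences match release 5 of the Drosophila genome. No annotation of that release was used, so the sites carry no gene, exon or intron labels.

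Su(Hw) peaks without dCTCF or BEAF had Su(Hw) scores of 50.02 to 848.5 with a median of 75.12, and 28.5% (25.2 to 32.0%) had a score of at least 100. Among Su(Hw) peaks with dCTCF or BEAF the median score was 89.87 and that share was 43.7% (38.6 to 49.0%). The share of Su(Hw) peaks that lacked dCTCF and BEAF was 73.7% (67.2 to 79.2%) among the lowest scoring quintile of peaks and 49.5% (42.7 to 56.3%) among the highest. The median width was 841.5 bp, against 844 bp for Su(Hw) peaks with dCTCF or BEAF. The sites were thus weaker on average and of the same typical width. These values describe how the sites were chosen and support nothing further.

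The distance from these sites to the nearer of the interphase dCTCF and BEAF peaks had a median of 8407 bp and reached 89830 bp. For 10.5% (8.44 to 13.1%) of them it was under 1 kb, so not every site lies far from the other proteins. Just inside the rule, the peak at X 19506767 to 19507535 lay 22 bp from such a peak and scored 72.08. The peak at X 18030157 to 18031519 lay 29 bp away and had a score of 108.56. The peak at 2R 17069820 to 17070520 lay 30 bp away and had a score of 92.22. All 3 overlapped CP190 in mitosis and in interphase. Just outside the rule, the peaks at 3R 20541992 to 20542980, 2L 1149502 to 1150447 and 2R 3777192 to 3777937 overlapped a dCTCF or BEAF peak by 7, 17 and 23 bp and had scores of 54.22, 57.37 and 57.05.

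CP190 was called at fewer of the Su(Hw) peaks without dCTCF or BEAF than of those with either protein, in both phases. In mitosis 309 of 674 overlapped a CP190 peak (45.8%, 42.1 to 49.6%), against 88.9% (85.1 to 91.7%) of the 350 Su(Hw) peaks with dCTCF or BEAF. Over all 1024 main-arm Su(Hw) peaks the share was 60.5%. The difference was -43.0 points (-47.7 to -37.7). In interphase 435 of 674 overlapped a CP190 peak (64.5%, 60.9 to 68.1%), against 94.6% (91.7 to 96.5%) of Su(Hw) peaks with dCTCF or BEAF and 74.8% of all. The difference was -30.0 points (-34.2 to -25.5). CP190 took no part in choosing the sites, but the sites set aside were chosen for carrying proteins that occur with CP190.

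**Figure D1:**
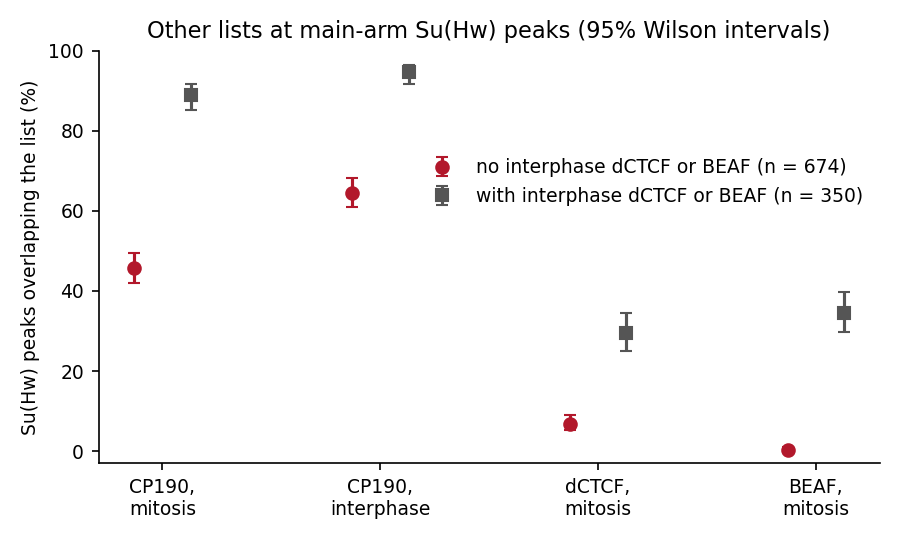
Percentage of main-arm Su(Hw) peaks that overlap a peak of mitotic CP190, interphase CP190, mitotic dCTCF or mitotic BEAF (x axis), for peaks without interphase dCTCF or BEAF (circles, n = 674) and with either (squares, n = 350); bars are 95% Wilson intervals. The circles lie below the squares for each list, at 45.8% against 88.9% for mitotic CP190 and 64.5% against 94.6% for interphase CP190.

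Each kind of partner gave a higher CP190 share than Su(Hw) peaks without dCTCF or BEAF had. In mitosis CP190 was at 97.6% (93.2 to 99.2%) of the 126 Su(Hw) peaks with both dCTCF and BEAF, at 84.5% (74.3 to 91.1%) of the 71 with dCTCF only and at 83.7% (77.0 to 88.7%) of the 153 with BEAF only. In interphase these shares were 96.8, 95.8 and 92.2%. Peaks with dCTCF only and with BEAF only had overlapping intervals in each phase.

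The lower share was present in every quintile of the Su(Hw) score, and in both phases the difference was smaller in the highest quintile than in the lowest. In the lowest quintile of scores, taken over all main-arm Su(Hw) peaks, mitotic CP190 was at 29.8% (23.1 to 37.5%) of the peaks without dCTCF or BEAF and at 75.9% (63.1 to 85.4%) of those with either. In the highest quintile it was at 74.3% (65.0 to 81.8%) and 97.1% (91.8 to 99.0%). These are differences of -46.1 points (-57.7 to -31.1) and -22.8 points (-32.3 to -13.6), with intervals that overlap. In the quintiles between them the mitotic differences were -43.8, -42.8 and -42.6 points, so there was no steady change with score. For interphase CP190 the shares were 44.4% and 88.9% in the lowest quintile, a difference of -44.5 points (-54.2 to -30.9). In the highest they were 89.1% and 99.0%, a difference of -9.92 points (-17.5 to -3.53).

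Taken over both phases, Su(Hw) peaks without dCTCF or BEAF fell into 4 classes. CP190 was called in both phases at 248 of them (36.8%, 33.2 to 40.5%), in mitosis alone at 61 (9.05%, 7.11 to 11.5%), in interphase alone at 187 (27.7%, 24.5 to 31.2%) and in neither at 178 (26.4%, 23.2 to 29.9%). Among the Su(Hw) peaks with dCTCF or BEAF these shares were 85.1% (81.0 to 88.5%), 3.71% (2.18 to 6.25%), 9.43% (6.79 to 12.9%) and 1.71% (0.788 to 3.69%). No other list of the series had a peak at 170 of the 674 sites (25.2%, 22.1 to 28.6%). The rule removed interphase dCTCF and BEAF from every site, so this share is partly built in. Su(Hw) peaks with dCTCF or BEAF cannot fall into this group.

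The class with CP190 in both phases was larger in each successive quintile of Su(Hw) scores, and the class with neither was smaller. The first held 21.2% (15.4 to 28.4%) of the sites in the lowest quintile and 68.3% (58.7 to 76.6%) in the highest. The class with neither held 47.0% (39.2 to 55.0%) and 4.95% (2.13 to 11.1%). The class with CP190 in interphase alone stayed between 20.8 and 33.3%, and that with CP190 in mitosis alone between 5.94 and 10.9%. For mitotic CP190 as a whole, the highest quintile exceeded the lowest by 44.5 points (32.4 to 54.5).

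**Figure D2:**
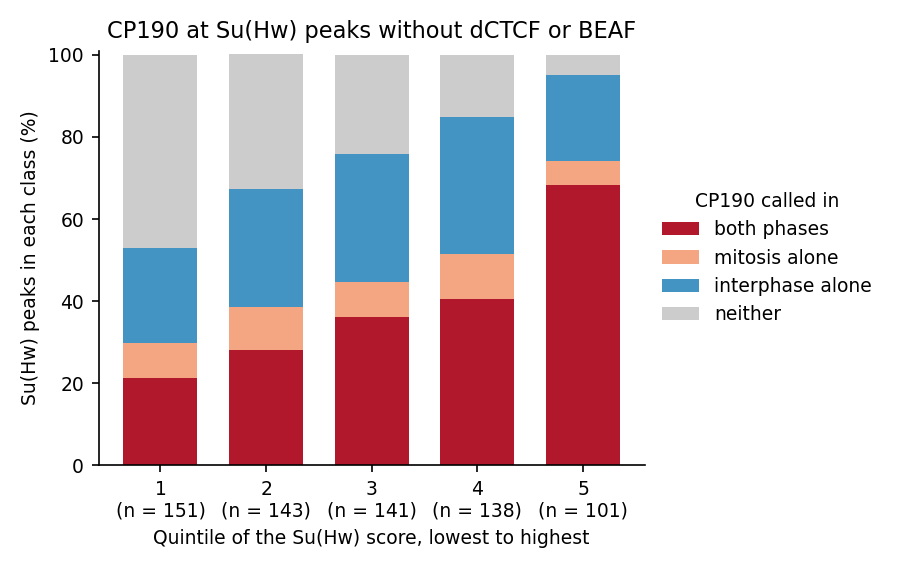
Stacked percentages of the 674 Su(Hw) peaks without dCTCF or BEAF with CP190 called in both phases, mitosis alone, interphase alone or neither (y axis), by quintile of the Su(Hw) score over all main-arm Su(Hw) peaks (x axis, with n). CP190 in both phases occupies 21.2% of the lowest and 68.3% of the highest quintile, and neither phase 47.0% and 4.95%.

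The strongest sites of the class with CP190 in both phases included the 3L peak at 12639215 to 12639735, which was 521 bp wide and had the highest Su(Hw) score of all 674 (848.5). Its CP190 scores were 518.87 in mitosis and 3100 in interphase. The 2L peak at 898223 to 902133 spanned 3911 bp and scored 817.93 for Su(Hw), 496.28 for mitotic CP190 and 3189.39 for interphase CP190. The 2R peak at 10219139 to 10220160 scored 659.38 for Su(Hw), 395.78 for mitotic CP190 and 3100 for interphase CP190. These lay 9400, 9983 and 18992 bp from the nearest interphase dCTCF or BEAF peak, and none of the 5 highest scoring sites of the class had mitotic dCTCF or BEAF. Many peaks of the lists are tied at a score of 3100 while a few exceed it, so scores of 3100 and above were not read as an order of strength.

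The other 3 classes held weaker Su(Hw) peaks. Median Su(Hw) scores were 91.60 with CP190 in both phases, 72.59 in mitosis alone, 76.55 in interphase alone and 61.90 in neither. The strongest site with CP190 in interphase alone, at 2R 11924082 to 11925017, scored 311.71 for Su(Hw) and 1412.7 for interphase CP190. A neighbouring pair on 3R, at 21186097 to 21187123 and 21195647 to 21197005, had interphase CP190 scores of 412.84 and 2007.6 and no mitotic CP190 call. The strongest site with CP190 in mitosis alone, at 3R 21224459 to 21226250, scored 269.48 for Su(Hw) and 129.75 for mitotic CP190. The strongest sites with CP190 in neither phase, at 3R 4847404 to 4848759 and 2L 1051799 to 1053168, had Su(Hw) scores of 169.46 and 161.94.

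CP190 called in a single phase was also weaker within its own list. The median mitotic CP190 score was 195.1 at sites with CP190 in both phases and 87.02 at sites with it in mitosis alone. The median interphase CP190 score was 786.4 at sites with both and 559.5 at sites with it in interphase alone. Sites with CP190 in mitosis alone were wider, with a median Su(Hw) width of 1065 bp against 835.5 bp for both phases, 799 bp for interphase alone and 845 bp for neither. Of these 61 sites, 15 lay in the first 2 Mb of 2L, described below. The sites there had a median width of 1262 bp, against 823 bp elsewhere. The part of that region in the width of the class was not tested.

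Fewer of the Su(Hw) peaks without dCTCF or BEAF had CP190 in mitosis than in interphase, but this order depended on the lengths of the CP190 lists. The difference over the same 674 sites, mitosis minus interphase, was -18.7 points (-23.1 to -14.3, a paired Wald interval). The main-arm CP190 list was shorter in mitosis (3759 peaks) than in interphase (10431 peaks). When the interphase list was held to its 3759 highest scoring peaks, a comparison added after the data were seen, interphase CP190 was at 35.3% (31.8 to 39.0%) of the sites and the difference was 10.5 points (5.87 to 15.2), the opposite sign. The phases therefore cannot be ranked from these lists.

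Where CP190 was called, it lay at the centre of the Su(Hw) peak. The midpoint of the nearest overlapping CP190 peak was a median of 58 bp from the Su(Hw) midpoint in mitosis and 65 bp in interphase. It was within 200 bp at 86.7% (82.5 to 90.1%) of the 309 sites in mitosis and 83.0% (79.2 to 86.2%) of the 435 sites in interphase. At Su(Hw) peaks with dCTCF or BEAF the medians were 73 bp in mitosis and 116.5 bp in interphase. Few of these CP190 peaks reached across to a neighbouring dCTCF or BEAF peak. The CP190 peak also touched an interphase dCTCF or BEAF peak at 4 of the 309 sites in mitosis (1.29%, 0.505 to 3.28%) and at 11 of the 435 in interphase (2.53%, 1.42 to 4.47%).

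Seen from the CP190 lists, interphase CP190 peaks at these sites had a mitotic CP190 call more often than interphase CP190 peaks with none of Su(Hw), dCTCF and BEAF. Among main-arm interphase CP190 peaks without interphase dCTCF or BEAF, 446 overlapped one of the sites, and 254 of them overlapped a mitotic CP190 peak (57.0%, 52.3 to 61.5%). Of the 4915 that overlapped no Su(Hw) peak, 16.3% (15.3 to 17.3%) did. The share over all 10431 main-arm interphase CP190 peaks was 31.4%. The difference was 40.7 points (35.9 to 45.3). The share at the sites was not the highest of the CP190 sets: interphase CP190 peaks with both dCTCF and BEAF and no Su(Hw) had a mitotic call in 64.8% (62.0 to 67.6%) of 1117 cases, with a median CP190 score of 1456. Su(Hw) was profiled in mitotic cells, as was the CP190 that is counted here, so both measures come from the same sorted population. The part of this in the difference was not tested.

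The interphase CP190 peaks at the sites were stronger than those without Su(Hw), with median scores of 579.3 and 173.3 and median widths of 719 and 542 bp. The difference was nevertheless present within each quintile of interphase CP190 scores. It was 32.5 points (18.4 to 47.4) in the lowest quintile, where 19 of 42 peaks at the sites and 12.7% of the others had a mitotic call. It was smallest in the fourth, at 24.7 points (14.6 to 35.5), and in the highest the shares were 65.7% (58.2 to 72.5%) and 32.6% (28.3 to 37.1%). The quintiles do not make the sets equal. In the highest, median CP190 scores were 2540 at the sites and 1699 without Su(Hw), and median widths were larger at the sites in each quintile.

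The shares at the sites did not follow the CP190 score in the way seen at CP190 peaks with dCTCF only or BEAF only. The Su(Hw) peaks were from mitosis, as was the CP190 call counted, whereas the dCTCF and BEAF peaks were from interphase. The part of this in the comparison was not tested. CP190 peaks with dCTCF only and no Su(Hw) had a mitotic call in 4.72% (2.18 to 9.92%) of cases in the lowest quintile and 72.5% (67.6 to 77.0%) in the highest. With BEAF only and no Su(Hw) these shares were 13.2% and 76.3%. At the Su(Hw) sites they were 45.2% (31.2 to 60.1%) and 65.7% (58.2 to 72.5%). In the lowest 3 quintiles the interval at the Su(Hw) sites lay above those at dCTCF only and BEAF only. In the fourth quintile the share was 40.0% (30.2 to 50.6%) at the sites, against 35.0% with dCTCF only and 42.3% with BEAF only. In the highest quintile the sites stood below both, with overlapping intervals.

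**Figure D3:**
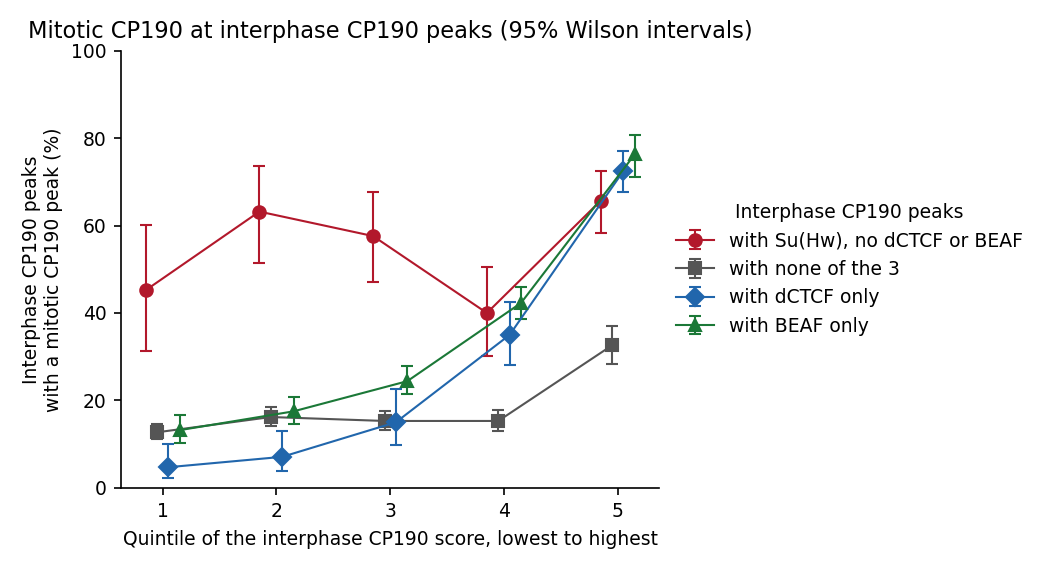
Percentage of main-arm interphase CP190 peaks that overlap a mitotic CP190 peak (y axis) by quintile of the interphase CP190 score (x axis), for peaks at Su(Hw) sites without dCTCF or BEAF (circles), with none of Su(Hw), dCTCF and BEAF (squares), with dCTCF only (diamonds) and with BEAF only (triangles); bars are 95% Wilson intervals. The circles lie at 45.2% in the lowest quintile, where the other sets lie at 4.72 to 13.2%. In the fourth they lie at 40.0%, between the diamonds (35.0%) and the triangles (42.3%), and in the highest at 65.7%, below both. Su(Hw) peaks are from mitosis, and dCTCF and BEAF peaks are from interphase.

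From the mitotic side, 310 of the 1446 main-arm mitotic CP190 peaks without interphase dCTCF or BEAF lay at one of these sites (21.4%, 19.4 to 23.6%). In interphase it was 446 of 5367 (8.31%, 7.60 to 9.08%). The CP190 lists differ in length and Su(Hw) was profiled in mitosis, so these shares do not rank the phases. Of the 310 mitotic CP190 peaks, 80.6% (75.9 to 84.7%) were also called in interphase, against 73.3% (70.6 to 75.8%) of the 1119 without any Su(Hw) peak. Scores and widths were taken only over sets that include peaks with interphase dCTCF or BEAF. There, median mitotic CP190 scores were 164.7 for 314 peaks at the sites and 113.4 for 3120 without Su(Hw). Median widths were 663.5 and 548 bp. The shares were not split by score, and the part of peak strength or width in their difference was not tested.

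Mitotic dCTCF was called at 46 of the 674 sites (6.82%, 5.16 to 8.98%), against 29.4% (24.9 to 34.4%) of the Su(Hw) peaks with dCTCF or BEAF and 14.6% of all main-arm Su(Hw) peaks. The sites were chosen for lacking interphase dCTCF, so a low share is partly built into the rule. Su(Hw) peaks with BEAF only, which also lack interphase dCTCF, had mitotic dCTCF in 24.8% (18.7 to 32.2%) of cases. Mitotic CP190 was at 73.9% (59.7 to 84.4%) of the 46 sites with mitotic dCTCF and at 43.8% (40.0 to 47.7%) of the 628 without it. Many of the 46 were broad, as given next. Over all the sites, mitotic CP190 was at 85.7% of those of 2 kb or more and at 43.7% of narrower ones. The part of width in the contrast with mitotic dCTCF was not tested.

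Broad Su(Hw) peaks were more frequent among the sites with mitotic dCTCF than among all the sites. Of the 46, 19 had a Su(Hw) peak of 2 kb or more (41.3%, 28.3 to 55.7%), although such peaks made up 5.19% (3.76 to 7.14%) of the 674. Put the other way, 54.3% (38.2 to 69.5%) of the 35 sites of 2 kb or more had mitotic dCTCF, and 1.85% (0.632 to 5.30%) of the 162 sites under 700 bp. This was not particular to the sites. Among Su(Hw) peaks with dCTCF or BEAF these shares were 58.3% (42.2 to 72.9%) of 36 and 26.2% (18.0 to 36.5%) of 84. Peaks of 2 kb or more made up 10.3% (7.52 to 13.9%) of that set. The width limits were set after the data were seen. The mitotic dCTCF peaks at the sites had a median width of 2507 bp, against 896 bp for all main-arm mitotic dCTCF peaks. Among the sites with mitotic dCTCF, the 3 with the highest Su(Hw) scores (399.37, 348.1 and 329.71) were 2R 3123263 to 3128527, 2R 6907669 to 6912582 and 3R 2335450 to 2340761, which were 5265, 4914 and 5312 bp wide and had mitotic dCTCF scores of 630.92, 740.51 and 1476.36. Each had CP190 in both phases, and each lay more than 10 kb from any interphase dCTCF or BEAF peak. The part of peak width in the overlap with mitotic dCTCF was not tested. With the sites of 2 kb or more left out, mitotic dCTCF was at 4.23% (2.92 to 6.08%) of the sites.

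The CP190 shares also differed with width, and not in the same way in mitosis and in interphase. Mitotic CP190 was at 38.9% (31.7 to 46.6%) of the sites under 700 bp, 51.5% (43.1 to 59.7%) of those of 1000 bp to under 2 kb and 85.7% (70.6 to 93.7%) of those of 2 kb or more. Interphase CP190 was at 75.3% (68.1 to 81.3%), 45.6% (37.5 to 54.0%) and 74.3% (57.9 to 85.8%). The Su(Hw) score moved with width, with medians of 63.74, 70.63, 93.28 and 161.9 at the sites, from the narrowest class to the widest. Sites in the first 2 Mb of 2L, described below, had a median width of 1262 bp and interphase CP190 at 32.3%. The part of that region in the width pattern was not tested.

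Mitotic BEAF was called at 2 of the 674 sites (0.297%, 0.0814 to 1.08%), against 34.6% (29.8 to 39.7%) of the Su(Hw) peaks with dCTCF or BEAF and 12.0% of all main-arm Su(Hw) peaks. Su(Hw) peaks with dCTCF only, which also lack interphase BEAF, had mitotic BEAF in 1 of 71 cases (1.41%, 0.249 to 7.56%). The 2 sites were 2R 17591634 to 17592613 and 3L 18752095 to 18752889. Their mitotic BEAF scores were 51.57 and 68.99, near the floor of 50 in these lists, and both had CP190 in each phase, with mitotic CP190 scores of 584.9 and 771.9.

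Interphase CP190 was called less often at sites close to interphase dCTCF or BEAF than at sites farther away, whereas the mitotic CP190 share showed no such order. Interphase CP190 was at 47.9% (36.7 to 59.3%) of the 71 sites under 1 kb from an interphase dCTCF or BEAF peak and at 52.5% (45.2 to 59.8%) of the 177 sites at 1 to 5 kb. From 5 kb outwards it was at 71.4 to 73.1% of the sites. Mitotic CP190 was at 50.7% (39.3 to 62.0%) of the sites under 1 kb, at 41.5% (33.4 to 50.1%) of those at 5 to 10 kb and at 46.3% (38.4 to 54.3%) of those at 20 kb or more. The distance classes were set after the data were seen, and the Su(Hw) score moved with them, with medians of 71.50 under 1 kb and 84.67 at 20 kb or more. Within each quintile of the Su(Hw) score, interphase CP190 was more frequent at 5 kb or more than nearer. That difference ranged from 9.11 points (-6.47 to 24.8) in the third quintile to 25.3 points (8.76 to 46.0) in the highest. For mitotic CP190 it ranged from -13.2 to 6.08 points.

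**Figure D4:**
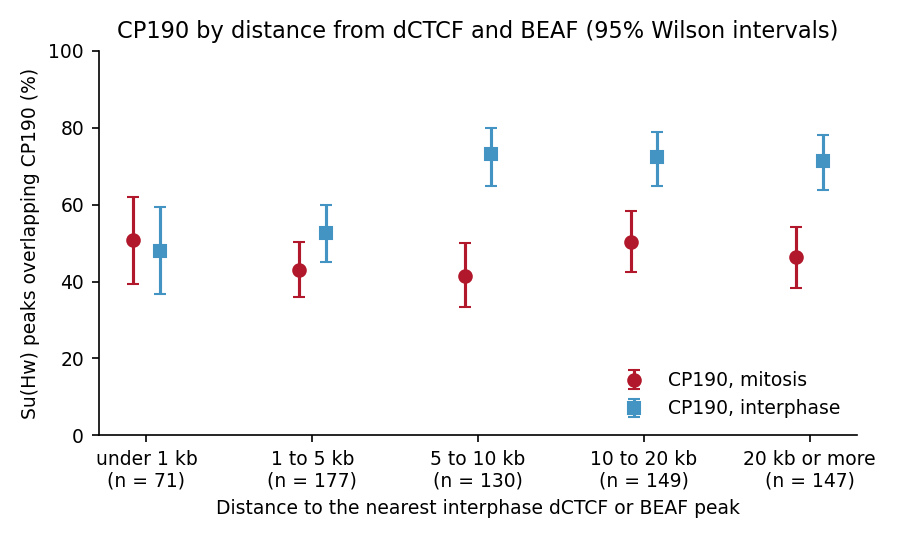
Percentage of Su(Hw) peaks without dCTCF or BEAF that overlap a CP190 peak in mitosis (circles) or interphase (squares) on the y axis, by distance to the nearest interphase dCTCF or BEAF peak (x axis, with n); bars are 95% Wilson intervals. The squares lie at 47.9% and 52.5% up to 5 kb and at 71.4 to 73.1% beyond, while the circles stay between 41.5 and 50.7%.

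The 5 large arms carried 125 to 156 of the sites each and differed in CP190. Arm 2R had 156 sites, 3R 131, 3L 130, X 126, 2L 125 and chromosome 4 had 6. On 3R, mitotic CP190 was at 38.2% (30.3 to 46.7%) of the sites and interphase CP190 at 80.9% (73.3 to 86.7%). On 2L these shares were 49.6% (41.0 to 58.2%) and 51.2% (42.5 to 59.8%). On 2R, 3L and X mitotic CP190 lay between 42.3 and 52.6% and interphase CP190 between 63.5 and 65.4%. CP190 in interphase alone accordingly held 46.6% (38.2 to 55.1%) of the sites on 3R and 18.4% (12.6 to 26.1%) on 2L. Su(Hw) peaks with dCTCF or BEAF had CP190 shares of 84.8% or more on each of these arms in both phases.

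The first 2 Mb of 2L, the end farthest from the centromere, held 62 of the 674 sites, a density of 31.0 per Mb against 5.17 per Mb over the rest of the main arms. The region was picked out after the densities were seen. The first 1 Mb alone held 40 sites, and the median over 124 bins of 1 Mb was 4. Su(Hw) peaks with dCTCF or BEAF were also denser there, at 11.0 against 2.77 per Mb, and mitotic CP190 stood at 64.5 against 30.7 per Mb. In the other 5 lists the ratio of densities was between 0.995 and 1.19, with interphase CP190 at 93.0 against 86.6 per Mb. Peak lists do not show the DNA copy number of the region in these cells, and its part in the densities and in the CP190 shares there was not tested.

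The sites in that region were broad, with a median width of 1262 bp against 823 bp elsewhere. This was not particular to them, since Su(Hw) peaks with dCTCF or BEAF had medians of 1721 and 829 bp. Every other list also had a larger median width there, such as 738 against 561 bp for mitotic CP190. Mitotic CP190 was called at 45.2% (33.4 to 57.5%) of the sites in the region and interphase CP190 at 32.3% (22.0 to 44.6%). Elsewhere these shares were 45.9% (42.0 to 49.9%) and 67.8% (64.0 to 71.4%). CP190 was called in mitosis alone at 24.2% (15.2 to 36.2%) of the sites in the region and in neither phase at 43.5% (31.9 to 55.9%). The rest of 2L had mitotic CP190 at 54.0% (41.8 to 65.7%) and interphase CP190 at 69.8% (57.6 to 79.8%) of its 63 sites. On 2R, 3L and X these shares were 42.3 to 52.6% and 63.5 to 65.4%, and on 3R they were 38.2% and 80.9%. The region holds neighbours of different classes. At 2L 1045435 to 1048458 a site with a Su(Hw) score of 618.33 had CP190 scores of 369.52 in mitosis and 3100 in interphase, while at 1051799 to 1053168 the score was 161.94 and CP190 was called in neither phase.

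**Figure D5:**
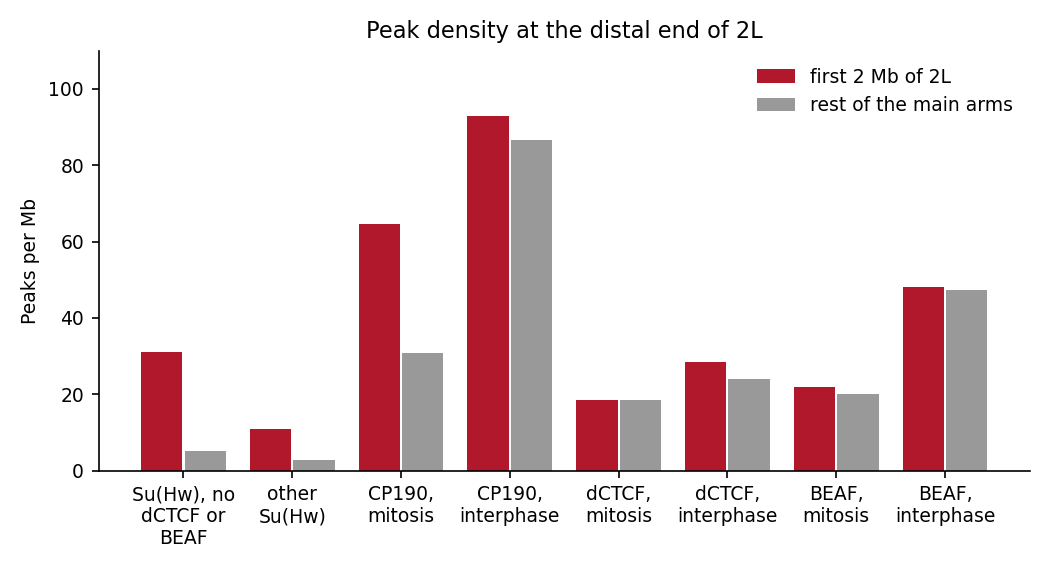
Peaks per Mb (y axis) in the first 2 Mb of 2L (red bars) and over the rest of the main arms (grey bars) for the Su(Hw) peaks without dCTCF or BEAF, the other Su(Hw) peaks and the 6 remaining lists (x axis); there are no replicates and no error bars. The ratio is highest for Su(Hw) peaks without dCTCF or BEAF, at 31.0 against 5.17 per Mb, and for mitotic CP190 they stand at 64.5 against 30.7 per Mb.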

How the data were processed

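Sorted Kc167 chromatin fragments of 200 to 1000 bp were immunoprecipitated, per the labels' protocols, with rabbit antibodies (CP190, BEAF, Su(Hw)) or a guinea pig and rat mixture (dCTCF). The cells already carried the rabbit-detected H3 antibody of the sort. Bowtie 0.12.5 is named in the submitters' processing notes. The authors deposited a peak list for each library, with a score for each peak. Peak names begin with MACS. Caller version, threshold, control library and genome build were not given in the sources used here. The gene table provided is for release 6, so neither genes nor sequences were assigned.

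Overlaps of at least 1 bp were counted with Python 3.11.15 and NumPy 2.4.6, checked on simulated lists, and equal to bedtools 2.31.1 in 84 of 84 comparisons. Figures used matplotlib 3.10.9. Groups came from sample titles. Distances are bp between peak edges unless midpoints are named. Arm lengths were taken as the highest peak end. Named sites were the 5 highest scoring of each CP190 class, the 3 highest scoring with mitotic dCTCF and with mitotic BEAF, and 3 on each side of the rule. Sites, lists and comparisons were chosen with earlier results of these data known. Alternatives were 50% reciprocal overlap, scores of at least 100, windows of 400 bp, a distance of 1 kb, and exclusion of mitotic dCTCF and BEAF. Added after the data were seen were the exclusion of peaks of 2 kb or more or of the first 2 Mb of 2L, and equal numbers of CP190 peaks.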

Additional observations from a re-analysis of the deposited data

Results flagged for a closer look

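Outside the main arms, on sequences the comparisons above do not use, 590 further Su(Hw) peaks overlapped no interphase dCTCF or BEAF peak, of 805 Su(Hw) peaks there, and 88.8% (86.0 to 91.1%) of the 590 lay on Uextra, the collection of unplaced sequence. Mitotic CP190 was called at 68.8% (65.0 to 72.4%) of them, interphase CP190 at 14.4% (11.8 to 17.5%), mitotic dCTCF at 60.7% (56.7 to 64.5%) and mitotic BEAF at 8.98% (6.93 to 11.6%). The lists differ in how much of them lies off the main arms. For dCTCF, 2237 of 6030 mitotic peaks and 2882 of 3962 interphase peaks lay on the main arms. For CP190 these counts were 3759 of 5608 and 10431 of 11470. The shares at the 590 peaks therefore do not rank the phases, and shares over all 805 were not computed. The 590 peaks were flagged as signal in data that no comparison uses.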

How the results depend on the processing

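Of 77 values recomputed under the alternatives, 59 stayed within the interval of the reported value (for the number of sites, within 1.5 times), 17 moved beyond it and 1 changed sign. The one that changed sign was CP190 at the sites, mitosis minus interphase, which was 10.5 points with equal numbers of CP190 peaks. In that setting interphase CP190 was at 35.3% of the sites and its difference from the other Su(Hw) peaks was -42.1 points. With a reciprocal overlap of 50%, mitotic CP190 was at 40.4% of the sites, interphase CP190 at 58.9% and mitotic dCTCF at 4.60%. The interphase CP190 difference was -17.1 points, and 51.9% of the interphase CP190 peaks at the sites had a mitotic call. With scores of at least 100, 192 sites remained. Mitotic CP190 was at 50% of them, interphase CP190 at 79.7%, mitotic BEAF at 0 of 192 (Wilson upper bound 1.96%), the interphase CP190 difference was -16.4 points, and mitosis minus interphase was -29.7 points. In windows of 400 bp, interphase CP190 was at 58.3% of the sites, mitotic dCTCF at 4.45% and the interphase CP190 difference was -22.5 points. Without Su(Hw) peaks of 2 kb or more, mitotic dCTCF was at 4.23%. The cause of these changes was not tested. The excess of mitotic CP190 calls at interphase CP190 peaks with Su(Hw) over those without it ranged from 36.2 to 44.2 points over the 8 alternatives. No paired analysis was possible because each group is 1 library, so no replicates pair across groups and none could be left out; the paired interval in the report is over sites, not samples. The unknown depth of each list limits every share.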

Other observations

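The median distance between the midpoint of a Su(Hw) peak without dCTCF or BEAF and the nearest other such midpoint was 47140 bp, and 21.4% (18.4 to 24.6%) of the 674 had another within 10 kb. Any other Su(Hw) peak lay within 10 kb of 26.3% (23.1 to 29.7%) of the 674. For the Su(Hw) peaks with dCTCF or BEAF this share was 22.3% (18.2 to 26.9%). These values were not compared with a random spread of sites. Where mitotic CP190 did not overlap a site, its nearest peak was a median of 11430 bp away, and for interphase CP190 the median was 3789 bp. Within 1 Mb of the ends of the arms nearest the centromere lay 12 of the 674 sites (1.78%, 1.02 to 3.09%), against 1.71% (0.788 to 3.69%) of the Su(Hw) peaks with dCTCF or BEAF.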
